A study of Mus musculus with 9 samples.

Results

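The 2 arms of 4 microRNA (miRNA) hairpins were read against each other: miR-326, miR-210, miR-340 and miR-1843b, together with the 5p arm of the near-identical miR-1843a. The 9 mature miRNAs were selected on their measured values, because both arms of a hairpin were listed and their RNA immunoprecipitation (RNA-IP) over input ratios lay far apart. No numerical limit was set for that gap. They made up 9 of the 548 mature miRNAs listed in the comparison of Ago2 RNA-IP with input and 9 of the 549 in that of Sfpq RNA-IP with input. The partner arm mmu-miR-1843a-3p was read alongside them without being a member. Because RNA-IP and input values chose the hairpins, the gaps between their arms are given as descriptions, with no test.

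The study sequenced small RNA from 3 input libraries, 3 libraries of RNA bound by an antibody to Ago2 and 3 libraries of RNA bound by antibodies to Sfpq. Ago2 was precipitated with the clone 2D4, and for Sfpq the protocol names the antibodies Ab38148 and B92. No treatment, genotype or time separated the groups, and no RNA-IP with a control antibody was among the 9 samples, so binding to beads or antibody cannot be told apart from binding to Ago2 or Sfpq. The cell type label of all 9 samples is RAW 264.7, a mouse macrophage-like cell line. In contrast, the source field names a mouse stem cell and the design text names P19 cells, a mouse embryonal carcinoma line. The paper names RAW 264.7 cells for the small RNA sequencing of both RNA-IPs. Of 6 miRNAs taken as marks of macrophages, 4 were found by name, and together they held 5.36% of the input miRNA signal. They ran from 103 for mmu-miR-223-3p to 265164 for mmu-miR-21a-5p, which made up most of that share. The other 2 are the arms of miR-142a, which were entered as miR-142 and left out of the share. They stood at 4307 (5p) and 846.0 (3p) in input of the Ago2 comparison. Of 8 miRNAs taken as marks of pluripotent cells, 1 was found by name, mmu-miR-302d-3p, at 0 in input.

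A miRNA hairpin is cut by Dicer into a short duplex of its 5p and 3p arms. Argonaute proteins such as Ago2 keep one arm as the guide that finds target RNAs, and the other, the passenger, is discarded. Which arm is kept depends on how firmly each end of the duplex is paired and on the first base, where Argonaute accepts U or A most readily. Sfpq is a nuclear RNA-binding protein of paraspeckles and splicing complexes. Total input RNA holds both arms, whether bound by a protein or not.

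The sequences below are shown because the arms of one hairpin are read against each other in all that follows, and because the miR-1843 pair differs by so few bases. They are the RefSeq mature miRNAs of the mouse build GRCm38.p6, with the seed, bases 2 to 8 from the 5′ end, in capitals.
mmu-miR-326-3p: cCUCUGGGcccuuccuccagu
mmu-miR-326-5p: gGGGGCAGggccuuugugaaggcg
mmu-miR-210-3p: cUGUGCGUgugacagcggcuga
mmu-miR-210-5p: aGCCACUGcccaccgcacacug
mmu-miR-340-5p: uUAUAAAGcaaugagacugauu
mmu-miR-340-3p: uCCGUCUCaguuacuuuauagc
mmu-miR-1843b-5p: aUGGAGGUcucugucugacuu
mmu-miR-1843b-3p: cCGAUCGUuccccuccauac
mmu-miR-1843a-5p: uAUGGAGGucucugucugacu
mmu-miR-1843a-3p: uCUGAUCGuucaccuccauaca

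The hairpins lie at 5 separate loci of GRCm38.p6. Mir326 spans 99552269 to 99552363 on the plus strand of chromosome 7, in an intron of Arrb1, which encodes a beta-arrestin. Mir210 spans 141221384 to 141221493 on the minus strand of chromosome 7, with no annotated host gene. Mir340 spans 50069702 to 50069799 on the plus strand of chromosome 11, in an intron of Rnf130. Mir1843b spans 159340358 to 159340423 on the plus strand of chromosome 1, in an intron of the ubiquitin ligase gene Cop1, and overlaps the small Cajal body RNA gene Scarna3a. Mir1843a spans 80391613 to 80391677 on the minus strand of chromosome 12, in an intron of Dcaf5, and overlaps Scarna3b. Each host gene is transcribed from the same strand as its hairpin.

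The deposited tables give 1 normalised signal per small RNA and group, the authors' mean over the libraries, so the group values carry no SD. Input was scaled separately in the 2 comparisons, 1.14 times higher in that with Ago2, and levels were therefore compared only within a comparison. The input log2 ratio of one arm to the other hardly differed between the 2 scalings, by at most 0.01 over the 5 hairpins (miR-1843a). The change of this arm ratio from input to RNA-IP, called the arm shift here, is taken as input-major over input-minor arm, so that a positive shift means that the arm more abundant in input gained further. Intervals are 95% counting intervals, approximate and for counting error only. They leave out the spread between libraries and any amplification copies.

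The low group values turned out to be sums of whole reads times the weight of 1 read in each of 3 libraries. All 1336 input values under 600 and all 588 Ago2 and 687 Sfpq RNA-IP values under 10 had exactly 1 solution in whole reads, so that reads per library could be given for part of the members. The libraries are called A, B and C from the lowest to the highest weight of a read within their group. Which deposited replicate each one is remains unknown, and input A and RNA-IP A are not a pair.

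In miR-326 both arms were present in input and the 5p arm was almost missing from both RNA-IPs. Each library is a bulk sample, in which fewer cells with an RNA and less RNA per cell cannot be told apart. miR-326 is known from T helper cells, where it favours differentiation into Th17 cells. The authors' mean of mmu-miR-326-3p was 245.9 in input and 331.9 in Ago2 RNA-IP, and 218.5 in input and 398.4 in Sfpq RNA-IP. The authors' mean of mmu-miR-326-5p was 127.8 in input and 3.91 in Ago2 RNA-IP, 32.7-fold lower, and 113.6 in input and 6.94 in Sfpq RNA-IP, 16.4-fold lower. The log2 ratio of RNA-IP to input was 0.43 for the 3p arm with Ago2, with an interval of 0.29 to 0.57, and 0.87 with Sfpq, from 0.73 to 1.0. For the 5p arm it was -5.03 with Ago2, from -5.78 to -4.28, and -4.03 with Sfpq, from -4.64 to -3.43. On the deposited scale the 2 arms thus parted by a small gain of one and a deep loss of the other. The gain rested on scaling. As a share of mature miRNA signal the 3p arm was at -0.21 with Ago2 and 0.05 with Sfpq, and the 5p arm at -5.67 and -4.85. The 3p arm went from 65.8% of the hairpin's signal in input to 98.8% in Ago2 and 98.3% in Sfpq RNA-IP.

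**Figure D1:**
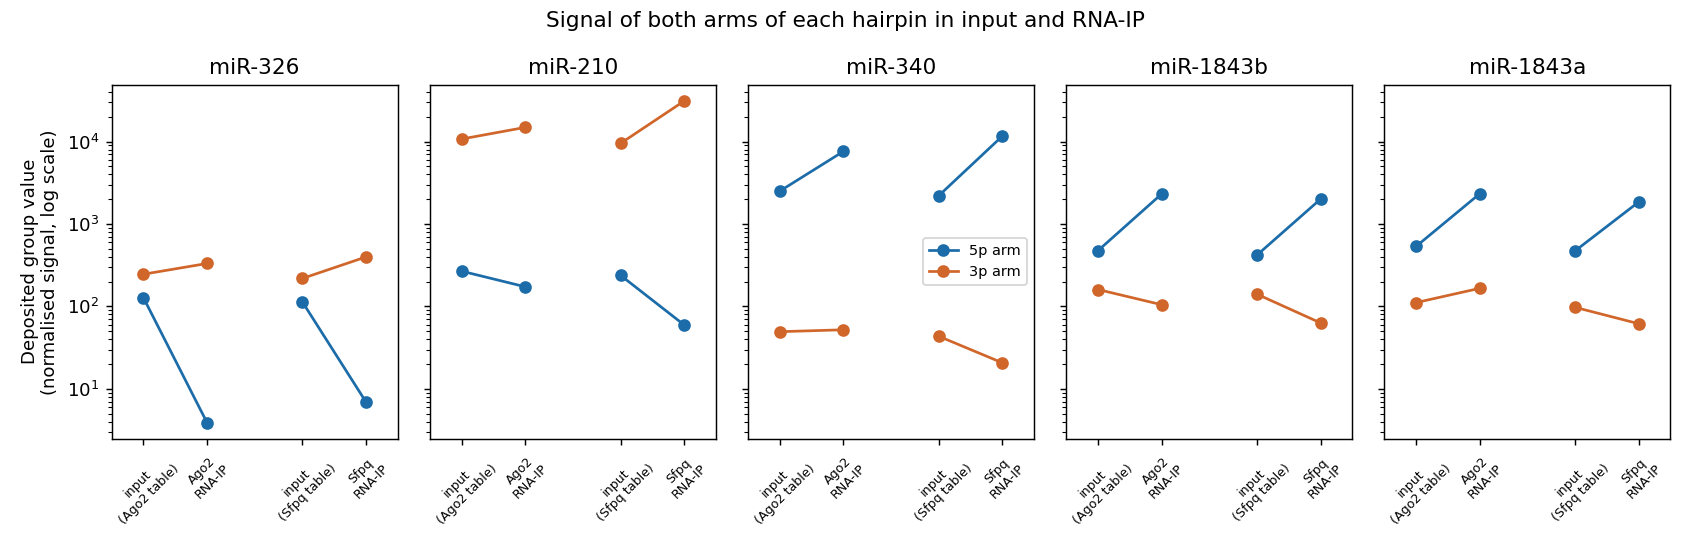
Deposited group value (normalised signal, log scale) of the 5p arm (blue) and the 3p arm (orange) of each hairpin in input and in RNA-IP, with input drawn once per comparison because it was scaled separately. Each point is 1 group value with no error bar, and lines join input to RNA-IP; miR-326-5p drops from 127.8 to 3.91 with Ago2 and from 113.6 to 6.94 with Sfpq, while the abundant arm of each hairpin is higher in RNA-IP than in input.

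The reads recovered for mmu-miR-326-5p were 41, 109 and 139 in input libraries A, B and C. In Ago2 RNA-IP they were 6, 4 and 5, and in Sfpq RNA-IP 3, 13 and 7. On the normalised scale the 3 input libraries held 36.6, 131.5 and 215.4 in the Ago2 comparison against 3.70, 3.13 and 4.90 in Ago2 RNA-IP. In the Sfpq comparison they held 30.8, 121.3 and 188.6 against 2.30, 11.4 and 7.13. Neither RNA-IP overlapped input, and the lowest input library, A, was still above the highest RNA-IP library in both comparisons. The arm was chosen for its ratio, and the share of all small RNAs without such overlap is not given, so this is a description. Only 15 Ago2 and 23 Sfpq RNA-IP reads stand behind these levels, so their own order is poorly set.

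Input itself was uneven for miR-326. mmu-miR-326-3p had 212, 280 and 136 reads in input libraries A, B and C. The 3p arm was therefore 83.8% of the hairpin's reads in library A (95% Wilson interval 78.8 to 87.8), 72.0% in B (67.3 to 76.2) and 49.5% in C (43.6 to 55.3). Library C held the arms in about equal number, while library A held a clear excess of 3p. Among the 15 hairpins with reads of both arms recovered, the share of the major arm ranged over a median of 11.3 percentage points between input libraries, and over 34.3 for miR-326, the second widest after miR-1934 at 45.1. Library C had the lowest share in 8 of these 15 hairpins, B in 4 and A in 3. The arm shift of miR-326 with Ago2 was 5.46, with an interval of 4.70 to 6.23, and with Sfpq 4.90, from 4.28 to 5.52. Leaving out input library C lowered it to 4.76 and 4.21, a change of 1.63-fold and 1.61-fold on the linear scale, and leaving out A raised it to 5.75 and 5.16. Set against each input library alone it ran from 4.04 (A) to 6.44 (C) with Ago2 and from 3.47 (A) to 5.87 (C) with Sfpq, so its size, but not its direction, rested on the library.

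**Figure D2:**
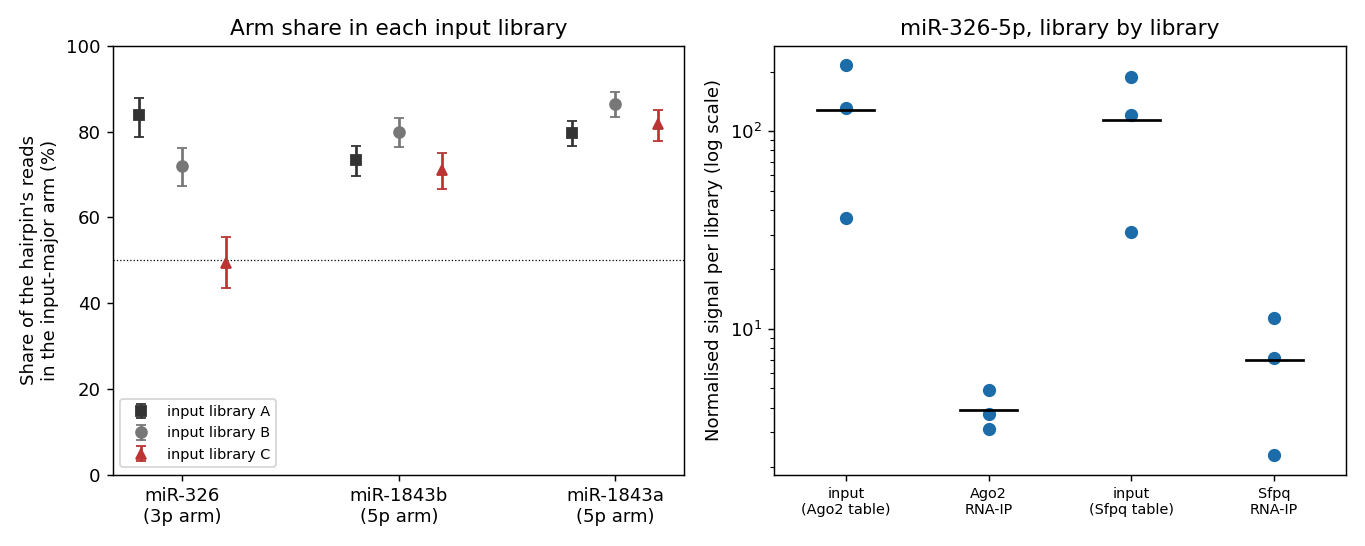
Left, share of the hairpin's reads in the input-major arm (%) in each input library (A black square, B grey circle, C red triangle) with 95% Wilson intervals and a dotted line at 50%; miR-326 runs from 83.8% in A to 49.5% in C. Right, normalised signal of miR-326-5p in each library (log scale), 1 point a library with the mean as a bar; the input libraries sit between 36.6 and 215.4 in the Ago2 comparison and the Ago2 RNA-IP libraries between 3.13 and 4.90.

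In miR-210 the 3p arm dominated in input and in both RNA-IPs, and the 5p arm was further below its own input with Sfpq than with Ago2. miR-210 is the miRNA best known for its induction by hypoxia through HIF-1, and its 3p arm is the one usually studied. The authors' mean of mmu-miR-210-3p was 10723 in input and 14850 in Ago2 RNA-IP, and 9500.2 in input and 31014 in Sfpq RNA-IP. The authors' mean of mmu-miR-210-5p was 267.9 in input and 173.3 in Ago2 RNA-IP, and 238.5 in input and 59.7 in Sfpq RNA-IP. The log2 ratios of the 3p arm were 0.47 with Ago2 (0.45 to 0.49) and 1.71 with Sfpq (1.69 to 1.73). Those of the 5p arm were -0.63 with Ago2 (-0.78 to -0.47) and -2.00 with Sfpq (-2.23 to -1.77). On the deposited scale each arm thus moved further with Sfpq than with Ago2, and the 2 arms went in opposite directions. With Ago2 these directions rested on scaling. As a share of mature miRNA signal the 3p arm was at -0.17 and the 5p arm at -1.27. Against the median small RNA they were at 1.34 and 0.24. The arm ratio, 3p over 5p, was 40.03 in input and 85.7 in Ago2 RNA-IP, but 39.8 in input and 520 in Sfpq RNA-IP. The arm shift was 1.10 with Ago2 (0.94 to 1.26), an interval that includes a 2-fold change, and 3.71 with Sfpq (3.48 to 3.93). Input reads of mmu-miR-210-5p were 131, 279 and 226 in libraries A, B and C, or 116.8, 336.6 and 350.2 on the normalised scale of the Ago2 comparison. Library A was the lowest for this minor arm, as it was for mmu-miR-326-5p. The reads of the 3p arm were too many to be recovered, so its share per library is not given.

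In miR-340 the 5p arm was higher in both RNA-IPs. On the deposited scale the 3p arm stayed near its input level with Ago2 and was lower with Sfpq. miR-340 has mostly been studied as a brake on the growth of tumour cells. The authors' mean of mmu-miR-340-5p was 2503 in input and 7589 in Ago2 RNA-IP, and 2205 in input and 11639 in Sfpq RNA-IP. The authors' mean of mmu-miR-340-3p was 49.4 in input and 52.1 in Ago2 RNA-IP, and 43.5 in input and 20.7 in Sfpq RNA-IP. The log2 ratios of the 5p arm were 1.60 with Ago2 and 2.40 with Sfpq (2.36 to 2.44). For the 3p arm the log2 ratio was 0.08 with Ago2, with an interval of -0.25 to 0.40 that includes no change, and -1.07 with Sfpq (-1.49 to -0.65). With Ago2 the level of the 3p arm rested on scaling. It was at -0.56 as a share of mature miRNA signal and at 0.94 against the median small RNA. The arm ratio, 5p over 3p, was 50.7 in input, 145.6 in Ago2 RNA-IP and 562 in Sfpq RNA-IP. The arm shift was 1.52 with Ago2 (1.19 to 1.85) and 3.47 with Sfpq (3.04 to 3.90). The 3p arm was even across input, with 53, 40 and 34 reads in libraries A, B and C, which is 47.3, 48.3 and 52.7 on the normalised scale of the Ago2 comparison. Its Sfpq RNA-IP value had 2 solutions, either 31, 24 and 17 reads or 33, 42 and 0, and is therefore not read per library. This was the least abundant of the member arms in input, at rank 243 of 548 mature miRNAs.

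On the deposited scale the 5p arm of the miR-1843 pair was higher in both RNA-IPs and the 3p arm of miR-1843b was lower. The authors' mean of mmu-miR-1843b-5p was 474.7 in input and 2309.5 in Ago2 RNA-IP, and 419.3 in input and 2002 in Sfpq RNA-IP. The authors' mean of mmu-miR-1843b-3p was 160.4 in input and 105.0 in Ago2 RNA-IP, and 140.9 in input and 63.1 in Sfpq RNA-IP. The 5p arm was about as far above input with one protein as with the other, at log2 ratios of 2.28 with Ago2 and 2.26 with Sfpq, and the 3p arm was at -0.61 (-0.81 to -0.41) and -1.16 (-1.40 to -0.92). The authors' mean of mmu-miR-1843a-5p was 535.5 in input and 2328 in Ago2 RNA-IP, and 472.5 in input and 1849 in Sfpq RNA-IP, giving log2 ratios of 2.12 and 1.97. Its partner mmu-miR-1843a-3p was at 111.4 in input and 165.9 in Ago2 RNA-IP, a log2 ratio of 0.58 (0.37 to 0.78), and at 97.5 in input and 61.7 in Sfpq RNA-IP, a log2 ratio of -0.66 (-0.92 to -0.40). On the deposited scale the 3p arm of miR-1843a was thus above input with Ago2 and below it with Sfpq. As a share of mature miRNA signal it was below in both, at -0.06 and -1.48.

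The arm shift of miR-1843b was 2.89 with Ago2 (2.67 to 3.11) and 3.41 with Sfpq (3.16 to 3.67), and that of miR-1843a was 1.54 (1.32 to 1.77) and 2.63 (2.35 to 2.90). All their input reads could be recovered. mmu-miR-1843b-5p had 456, 431 and 321 reads in libraries A, B and C, and mmu-miR-1843b-3p had 166, 108 and 131. The 5p share of miR-1843b was 73.3% in A (69.7 to 76.6), 80.0% in B (76.4 to 83.1) and 71.0% in C (66.7 to 75.0). mmu-miR-1843a-5p had 548, 477 and 350 reads and mmu-miR-1843a-3p 139, 74 and 78, and the 5p share was 79.8% (76.6 to 82.6), 86.6% (83.5 to 89.2) and 81.8% (77.8 to 85.1). Both hairpins had their highest 5p share in library B, and their spread between libraries was far narrower than that of miR-326. Leaving out 1 input library at a time kept the shift of miR-1843b between 2.72 and 3.09 with Ago2 and between 3.24 and 3.62 with Sfpq. For miR-1843a the range was 1.40 to 1.74 with Ago2 and 2.49 to 2.83 with Sfpq.

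Many 5p reads of the 2 copies may not be assignable to one of them. The mature 5p sequences share 20 bases in 1 run, auggaggucucugucugacu, and differ only in an added base at the 5′ end of mmu-miR-1843a-5p and at the 3′ end of mmu-miR-1843b-5p. Their levels followed each other, with a ratio of miR-1843a to miR-1843b of 1.13 in input, 1.01 in Ago2 RNA-IP and 0.92 in Sfpq RNA-IP. A read that starts with the added 5′ base of mmu-miR-1843a-5p can be told from miR-1843b, while a read of the shared run alone fits both. How such reads were counted is not given in the sources used here, and the 2 values may not be separate measurements. The 3p arms matched at 18 of 20 aligned bases, with the substitutions U3C and A12C, counted from the 5′ end of mmu-miR-1843a-3p with its base first. Their ratio was 0.69 in input, 1.58 in Ago2 RNA-IP and 0.98 in Sfpq RNA-IP, so the 3p arms did not keep to 1 ratio as the 5p arms nearly did. With both 5p arms and both 3p arms summed the arm shift was 2.20 with Ago2 and 3.04 with Sfpq.

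A further listed small RNA, SCARNA3, covers the same ground. Its entry spans 80391613 to 80391751 of chromosome 12 in the coordinates of the table and contains the whole Mir1843a hairpin. Its signal was 2495 in Ago2 RNA-IP, of which the 2 arms of miR-1843a together made up 99.97%, and 1920 in Sfpq RNA-IP, of which they made up 99.52%. In input it was 720.4 in the Ago2 comparison, and the arms made up 89.8%. The entry thus held little beyond the miRNA in either RNA-IP, with a remainder of 0.70 with Ago2 and 9.22 with Sfpq against 73.5 and 64.2 in the inputs. In reads, input library A had 784 on the entry and 687 on the arms, library B 594 and 551, and library C 481 and 428. The log2 ratios of SCARNA3, 1.79 with Ago2 and 1.60 with Sfpq, therefore belong to an entry whose RNA-IP signal was nearly all miR-1843a.

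**Figure D3:**
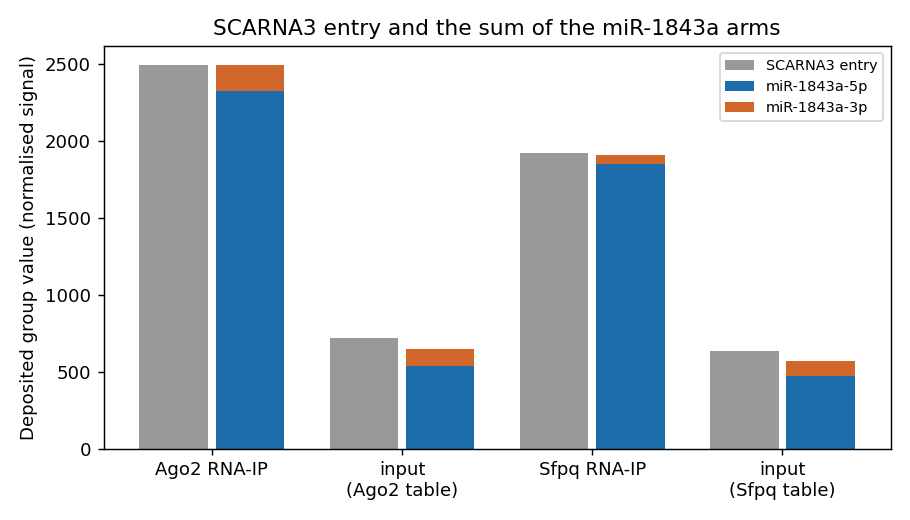
Deposited signal of the SCARNA3 entry (grey) beside the stacked signal of miR-1843a-5p (blue) and miR-1843a-3p (orange), in input and RNA-IP of both comparisons; bars start at 0 and each is 1 group value. In Ago2 RNA-IP the entry stands at 2495 and the arms at 2494, while in input the entry exceeds the arms by 73.5.

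Against all hairpins measured in the same way, a gain of the input-major arm was common. Of the 70 hairpins with both arms at an input signal of at least 20 in the Ago2 comparison, 31 had an arm shift of at least 2-fold with Ago2, or 44.3%, and 31 had one with Sfpq, again 44.3%. The 4 member hairpins all passed that limit in both comparisons, as did miR-1843a, but the rule used these very ratios, so nothing is read from that count. The median shift over the 70 hairpins was 0.77 in each comparison. The shift was above 0 in 54 and below 0 in 16 with Ago2, and above 0 in 50 and below in 20 with Sfpq, and 7 and 9 hairpins shifted at least 2-fold the other way. miR-326 ranked 2 of 70 with Ago2, where only miR-27a shifted further, and 1 with Sfpq. miR-210 ranked 28 and 3, miR-340 16 and 5, miR-1843b 5 and 6, and miR-1843a 15 and 11. With Ago2, miR-210 was therefore in the middle of all hairpins.

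Single arms were also set against all mature miRNAs with an input signal of at least 20. With Ago2, 63 of 298, or 21.1%, were at least 2-fold above input and 41, or 13.8%, at least 2-fold below. Of the 9 members, 3 were above (mmu-miR-340-5p, mmu-miR-1843b-5p and mmu-miR-1843a-5p) and 1 below (mmu-miR-326-5p). With Sfpq, 56 of 286, or 19.6%, were above and 54, or 18.9%, below. Here 4 members were above, mmu-miR-210-3p in addition, and 4 below, namely mmu-miR-326-5p, mmu-miR-210-5p, mmu-miR-340-3p and mmu-miR-1843b-3p. These counts too come from the ratios that chose the members, and they moved with scaling. Taken as a share of all mature miRNA signal they were 2 above and 3 below with Ago2 and 3 above and 4 below with Sfpq. Set to the median small RNA they were 5 above and 1 below with Ago2 and 5 above and 2 below with Sfpq. The shares over all mature miRNAs given above are on the deposited scale. None was worked out under these scalings, so nothing is read from the rescaled counts. The direction of the smaller single-arm ratios with Ago2 rested on scaling as well. As a share of mature miRNA signal, mmu-miR-326-3p was at -0.21, mmu-miR-210-3p at -0.17, mmu-miR-340-3p at -0.56 and mmu-miR-1843a-3p at -0.06. Against the median small RNA, mmu-miR-210-5p was at 0.24 and mmu-miR-1843b-3p at 0.25. The arm shifts are the same under all of these scalings.

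**Figure D4:**
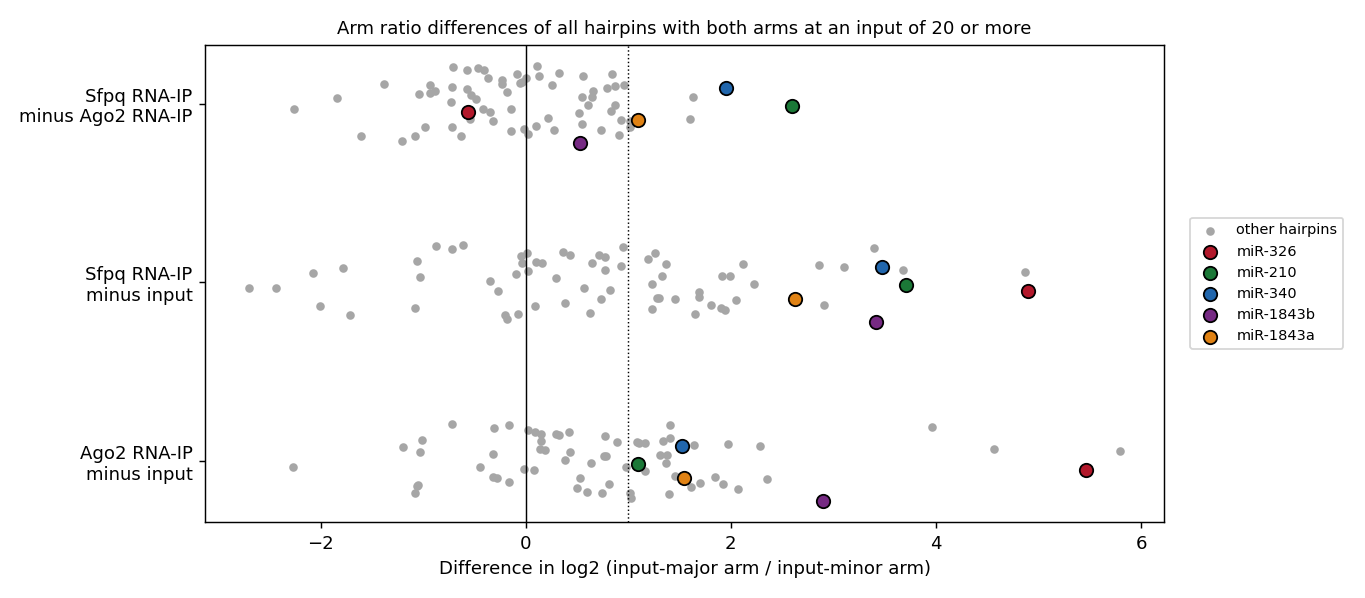
Difference in the log2 arm ratio for 70 hairpins, with Ago2 RNA-IP minus input, Sfpq RNA-IP minus input and Sfpq minus Ago2 RNA-IP in 3 rows; each grey point is 1 hairpin, coloured points are the named ones, points are spread vertically only to be seen, and the dotted line marks a 2-fold gain. miR-326 sits at 5.46 and 4.90 in the lower rows and at -0.57 in the upper, where miR-210 (2.60) and miR-340 (1.95) lie farthest to the right.

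The 2 RNA-IPs were then compared directly by their arm ratios, which needs no input. Sfpq RNA-IP held a more one-sided ratio than Ago2 RNA-IP in miR-210, by 2.60 on the log2 scale (2.37 to 2.83), and in miR-340, by 1.95 (1.55 to 2.34). These were the first and second of the 70 hairpins. miR-1843a differed by 1.09 (0.86 to 1.32) at rank 5 and miR-1843b by 0.53 (0.28 to 0.77) at rank 23. In miR-326 the difference was -0.57, with an interval of -1.51 to 0.38 that includes 0, at rank 52. Over the 70 hairpins the median was -0.05, with 32 above 0 and 38 below, and 7, or 10%, at least 2-fold above, as were 2 of the 4 member hairpins. Another 7 were at least 2-fold below. Since Ago2 and Sfpq values both entered the choice of the hairpins, this too is a description.

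The arms shared one feature of sequence that the choice did not use. In all 5 hairpins the arm more abundant in input had fewer G or C among its first 4 bases than its partner. mmu-miR-340-5p had 0 and mmu-miR-340-3p 3, mmu-miR-326-3p 3 and mmu-miR-326-5p 4, mmu-miR-210-3p 2 and mmu-miR-210-5p 3. mmu-miR-1843b-5p had 2 and mmu-miR-1843b-3p 3, and mmu-miR-1843a-5p 1 and mmu-miR-1843a-3p 2. In 4 of these 5 pairs the arms differed by a single base. Of 56 hairpins with both arms matched in RefSeq, these included, the major arm had fewer in 25 (44.6%), more in 16 (28.6%) and as many in 15 (26.8%). With only these hairpins, picked for their ratios and including the near-identical miR-1843 pair, the feature was not tested. First base, length and G+C of the whole arm were also looked at. G+C of the whole arm was lower in the more abundant arm except in miR-1843a, at 47.6% against 45.5% in its partner. Length went both ways, with 21 bases against 24 in miR-326 and 21 against 20 in miR-1843b.

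The first base did not divide the arms in the same way. The more abundant arms began with C in miR-326, C in miR-210, U in miR-340, A in miR-1843b and U in miR-1843a, and their partners with G, A, U, C and U. Over the 56 hairpins U came first in 44.6% of major and 25% of minor arms, and G in 5.36% and 16.1%. mmu-miR-326-5p, the member arm with the deepest loss, begins with GGGGG, which no major arm and no other minor arm of the 56 did. This is a single arm seen after the choice, and a link to its loss was not tested. The mean number of G or C among the first 4 bases was 1.79 in major and 2.02 in minor arms.

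Among all listed mature miRNAs that matched RefSeq, one shared a seed with a member. mmu-miR-330-5p carries the seed of mmu-miR-326-3p at the same position and is shown for that reason, with the seed in capitals.
mmu-miR-330-5p: uCUCUGGGccugugucuuaggc
The authors' mean of mmu-miR-330-5p was 259.5 in input and 642.8 in Ago2 RNA-IP, and 229.0 in input and 502.9 in Sfpq RNA-IP, with log2 ratios of 1.31 and 1.14. Its input level was close to that of mmu-miR-326-3p, and its ratios were higher in both comparisons.

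The hairpins most like each member, these 5 themselves left aside, were taken by the distance between 3 values over the 70 hairpins, the log2 arm ratio in input and the arm shift with each protein. miR-27a was nearest to miR-326, at a distance of 0.33, with the same input ratio of 0.94 and shifts of 5.80 with Ago2 and 4.87 with Sfpq, followed by miR-23a at 3.11. miR-1839 was nearest to miR-210 (1.74) and to miR-340 (1.15), followed by miR-1981 at 1.81 and 1.61. miR-301a was nearest to miR-1843b (1.57) and to miR-1843a (0.67), followed by miR-374b at 1.97 and miR-130b at 0.76. By the same distance miR-210 and miR-340 lay nearer to each other, at 0.59, than to any of these, miR-1843b lay 1.71 from miR-1843a, and miR-326 lay 3.03 from miR-1843b. In miR-27a, as in miR-326, the 3p arm was the more abundant in input.

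Hairpins known for the use of one or of both arms were described in the same way. Of 10 listed as using mainly 1 arm, 8 were measured, and 7 of them shifted at least 2-fold towards the input-major arm with Ago2 and 6 with Sfpq, with medians of 1.74 and 1.80 and a range with Ago2 from -1.02 (miR-21a) to 5.80 (miR-27a). Of 7 listed as using both arms, 5 were found by name and measured. Of these, 2 shifted with Ago2 and 1 with Sfpq, with medians of 0.38 and 0.15. Their range with Ago2 was from -0.28 (miR-17) to 1.11 (miR-151). A further hairpin of that list, miR-142a, was entered as miR-142 and is left out of these counts and medians. Its arm shift was -0.45 with Ago2 and -2.70 with Sfpq, below all 5. Beside these stand the 44.3% and the median of 0.77 over all 70 hairpins.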

How the data were processed

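Small RNA of 3 input, 3 Ago2 RNA-IP and 3 Sfpq RNA-IP libraries was sequenced. The authors mapped reads to the mouse genome and normalised them with the omiRas server, and the processing notes name cutadapt and mm10. Deposited values are a normalised signal, 1 per small RNA and group, the authors' mean over libraries. The tables also hold the authors' own fold changes, p-values and false discovery rates, and further lists hold fold changes past a background limit. None of these were used. Depth per sample is not given, and the total signal was 9809388 in Ago2 RNA-IP and 9957738 in Sfpq RNA-IP, against 7299085 and 6449023 in their inputs. With 1 pooled value a group, and members chosen on these same ratios, no test between groups was run.

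Log2 ratios and arm shifts were computed in Python 3.11.15 with NumPy and pandas, without a pseudocount. A change was counted from 2-fold (log2 of 1) on, over hairpins or miRNAs with an input signal of at least 20. Counting intervals used the mean weight of 1 read. Reads per library were recovered by finding whole-number combinations within the rounding of the table, in a procedure tested on simulated data, where nearly all values were recovered. With other simulated library weights a part of the values had several solutions or none, and rarely a wrong one. Sequences came from RefSeq (493 of 575 listed mature miRNAs matched) and host genes from GENCODE M21. Pseudocounts, filters and scalings were varied. The members, lists and named hairpins were chosen with earlier results of these data known, and the rule for naming was that every member, its partner arm, the 2 nearest hairpins and any sharer of a seed be given.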

Additional observations from a re-analysis of the deposited data

How the results depend on the processing

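All 4 member hairpins passed 2-fold in both comparisons under each pseudocount (1 and 10) and with the input column of the other comparison. That column could hardly move a shift, as the input arm ratios differed by at most 0.01 between the 2 scalings. The hairpins were also chosen on these ratios, so their passing is a description. Over 30 such alternatives of the arm shifts, miR-1843a included, the lowest value was 1.07, for miR-210 with Ago2 and a pseudocount of 10. That pseudocount lowered the shift of miR-326 to 3.73 with Ago2 and 3.70 with Sfpq. It brought the log2 ratio of mmu-miR-326-5p up to -3.31 and -2.87, as adding it raises a level of a few reads most. The share of all hairpins shifted at least 2-fold went from 44.3% to between 36.4% and 41.4% with Ago2 and between 39.9% and 41.4% with Sfpq under other minimum inputs. The comparison of Sfpq with Ago2 counted 2 member hairpins with each pseudocount, an alternative chosen after seeing the data, as was leaving out 1 input library at a time. Of 20 single-arm log2 ratios, 17 moved beyond their counting interval when centred on mature miRNAs, and 19 under each other scaling. The members at least 2-fold above input then numbered 2 to 5 with Ago2 (3 as deposited) and 3 to 5 with Sfpq (4), and those below 1 to 3 (1) and 2 to 4 (4). The share over all mature miRNAs was not worked out under these scalings.

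No paired analysis was possible because each column is 1 pooled value of a group and carries no replicate number. Leaving out a labelled replicate was not possible for the same reason. Depth per library is unknown, the levels of mmu-miR-326-5p in RNA-IP rest on 15 and 23 reads, and the spread between RNA-IP libraries of the abundant arms could not be recovered.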
